A study of Homo sapiens with 4 samples.

Results

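The 45 genes described here encode proteins of the large (60S) subunit of the cytoplasmic ribosome, from RPL3 to RPLP2. They were chosen by name from a list of large-subunit proteins and not by any measured value, and all 45 were found among the 19663 protein-coding genes of the GENCODE annotation of the human genome, build GRCh38. For each gene, its promoter peaks in c-MYC chromatin immunoprecipitation sequencing (ChIP-seq) were those with a summit at most 1 kb from where one of its protein-coding transcripts starts (the TSS).

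Binding was profiled in the pancreatic ductal adenocarcinoma cell line MIA PaCa-2, for which the labels name no engineered allele. The cells received DMSO, AMG510 at 100 nM or the MEK inhibitor trametinib at 10 nM for 8 h. Each of these 3 treatments had 1 library made with the c-MYC antibody, and DMSO-treated cells had 1 further library made with non-specific immunoglobulin (IgG). No group was replicated, so every difference between libraries is a difference between single libraries with no replicate check and no test, and both drug comparisons use the same DMSO library.

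Large-subunit proteins coat and stabilise the ribosomal RNA that forms peptide bonds, build the tunnel through which the new chain leaves, and form the stalk that recruits translation factors. Their genes are expressed in every growing cell, usually from GC-rich promoters with a very short first exon. MYC, which binds DNA with its partner MAX at a short palindrome called the E-box, is known as a regulator of ribosome production in many tissues, including tumours.

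In DMSO, 41 of the 45 genes (91.1%) had a c-MYC promoter peak, against 24.2% of all protein-coding genes. After AMG510 the number was 43 (95.6%), against 15.3% of all genes, and after trametinib it was 36 (80.0%), against 11.8%. In the IgG list none of the 45 had one, where 0.559% of all genes did. A promoter peak in every c-MYC list was seen for 35 of the 45, compared with 5.59% of all genes. Over all genes the share was thus lower after either drug than in DMSO, while for the large-subunit genes it was lower after trametinib and slightly higher after AMG510. With a fold enrichment above 5 the numbers in DMSO, after AMG510 and after trametinib were 37, 38 and 33 of the 45. Over all 19663 genes they were 2387, 1131 and 958. With a score above 60 they were 35, 35 and 31 of the 45, with no count over all genes to set beside them. The difference between these patterns was not tested.

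The 4 lists came from similar depth, with an estimated 22700000 to 24800000 tags (aligned read intervals) entering peak calling. The estimate rests on each list's background, its narrowest peak and an assumed genome size of 2.7e+09 bp. It was highest for trametinib, whereas the authors' number of uniquely mapped reads was lowest for trametinib. The lists held 9552 (DMSO), 10378 (AMG510), 5431 (trametinib) and 2966 (IgG) peaks. Judged from the narrowest peak of each list, tags were extended to 177 bp in DMSO, 157 bp after AMG510 and 163 bp after trametinib. At equal binding and depth, the longer extension in DMSO gives more tags at a summit. Tag counts, their intervals and their ratios between libraries were not corrected for this. At the genome-wide background, 7 or 8 tags at the summit were enough for a call. A gene without a promoter peak can therefore still have had tags below that limit, whose number is not known.

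The genes that were not found in every c-MYC list fell into 4 patterns. RPL28 had no promoter peak in any list. RPL13A, RPL27A and RPL41 had one only after AMG510. RPL10 had one in DMSO and after trametinib, and RPL4, RPL30, RPL34, RPLP0 and RPLP2 had one in DMSO and after AMG510. For RPL28, the nearest DMSO summit lay 1696 bp from a start site, just outside the 1 kb limit, with 16 tags. The promoter summit farthest from its start among those inside was that of RPL10 after trametinib, 579 bp downstream.

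**Figure D1:**
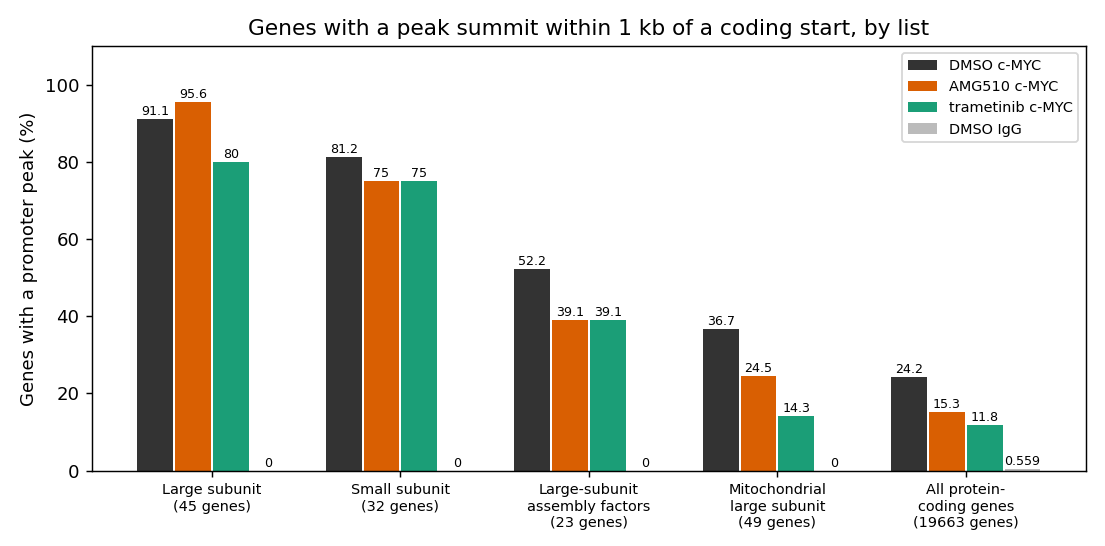
Share of genes (%, vertical axis) with a promoter peak in each of the 4 libraries, for 4 gene lists and for all protein-coding genes, with the number of genes under each name. The large-subunit bars stand at 91.1, 95.6 and 80.0% in the c-MYC libraries and at 0 in IgG, while all protein-coding genes stand at 24.2, 15.3, 11.8 and 0.559%.

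Genes of neighbouring functions were counted in the same way. Of 32 genes of the small subunit, 26 had a promoter peak in DMSO, 24 after AMG510 and 24 after trametinib. Of 23 assembly factors, the proteins that build the large subunit in the nucleolus and leave it before translation, 12, 9 and 9 had one. Of 49 genes of the large subunit of the mitochondrial ribosome, a separate machine that is also nuclear-encoded, 18, 12 and 7 did, shares of 36.7, 24.5 and 14.3%. None of these genes had a promoter peak in IgG. Of 7 paralogs of large-subunit genes, such as RPL3L and RPL22L1, 2 had a promoter peak in DMSO, 4 after AMG510 and 2 after trametinib.

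The large-subunit peaks were also among the strongest of each list. Fold enrichment is the ratio of the tags at a summit to the local background of the same library, with the same small constant added to both. Its percentile is the share of the list's peaks with a lower value. The median percentile of the strongest promoter peak of each gene was 95 in DMSO, 96.2 after AMG510 and 95.8 after trametinib, where the medians over all genes with a promoter peak were 64.9, 65.5 and 59.0. Genes of the small subunit stood about as high, with medians of 94.2, 96.5 and 95.3, so this was not particular to the large subunit. Above the 90th percentile stood 29 of 41, 33 of 43 and 24 of 36 large-subunit genes, compared with 17.7, 19.8 and 15.7% of all genes with a promoter peak. The 100 strongest peaks of the lists included promoter peaks of 7, 7 and 8 of them, out of 63, 39 and 45 promoter peaks of any gene.

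In tags, the median summit of these genes held 34 in DMSO, 24 after AMG510 and 26 after trametinib, against 16, 13 and 14 over all genes. Fold enrichment ranged from 4.29 to 16.7 in DMSO, from 4.07 to 14 after AMG510 and from 4.06 to 12.6 after trametinib. The weakest gene in each list stood at percentile 37.6 (RPL3 in DMSO), 30.1 (RPL27A after AMG510) and 26.6 (RPL10 after trametinib), so a few of the genes had ordinary or weak peaks while most stood near the top.

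**Figure D2:**
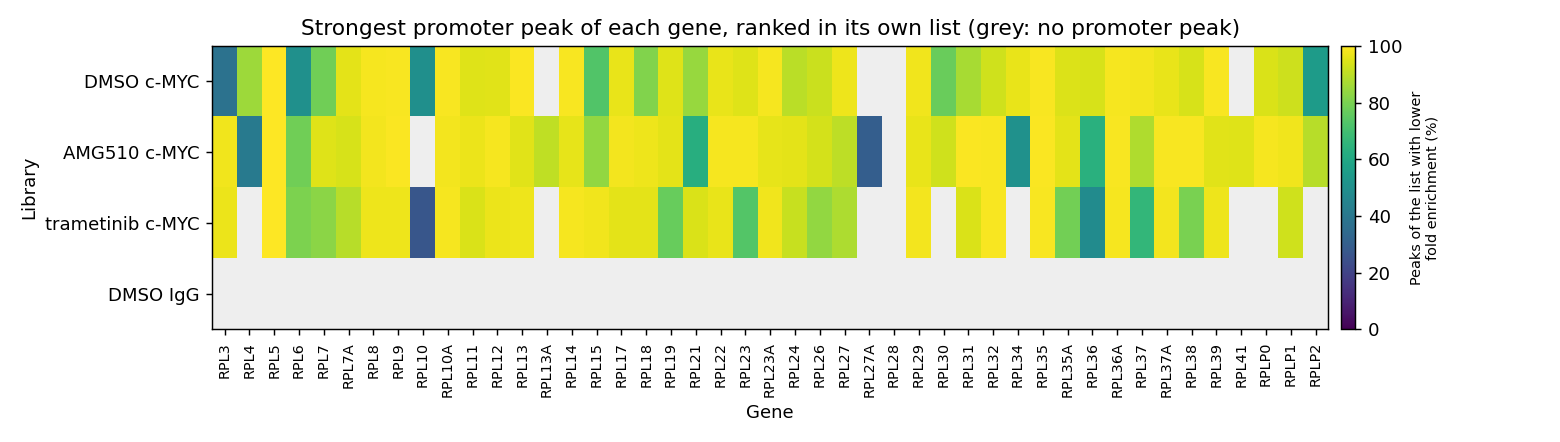
Percentile of fold enrichment within its own list (colour, %) for the strongest promoter peak of each of the 45 genes (horizontal axis) in the 4 libraries (vertical axis), with grey for no promoter peak. The IgG row is grey throughout, RPL28 is grey in every library, and the medians of the coloured cells are 95 (DMSO), 96.2 (AMG510) and 95.8 (trametinib).

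The 5S ribonucleoprotein was covered in all 3 c-MYC lists. RPL5 and RPL11 bind the 5S rRNA, and together with it are known to bind the p53 regulator MDM2 when ribosome assembly is disturbed. RPL5 had the highest fold enrichment of the 45 genes in each c-MYC list. Its summit held 86 tags in DMSO (95% Poisson interval 68.8 to 106), 64 after AMG510 (49.3 to 81.7) and 55 after trametinib (41.4 to 71.6), at fold enrichments of 16.7, 14 and 12.6. It ranked 9th, 16th and 19th of all peaks. These intervals cover counting error only and are too narrow, because both mates of a read pair can count as tags. The DMSO peak lay at chr1:92832044-92832545, with its summit in intron 1, 173 bp downstream of the start. RPL11 had 26 tags in DMSO, 19 after AMG510 and 20 after trametinib, at fold enrichments of 7.61, 6.79 and 6.77. Both genes were highest in DMSO, with intervals that overlapped between all pairs of libraries.

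The stalk was covered less evenly. RPLP0 anchors the stalk, and RPLP1 and RPLP2 are its acidic arms, which contact elongation factors. RPLP0 had 24 tags in DMSO and 25 after AMG510, with no promoter peak after trametinib, where the nearest summit of the list was 2971 bp away. RPLP1 had 24, 21 and 18 tags in DMSO, AMG510 and trametinib. RPLP2 had 19 tags in DMSO and 17 after AMG510, and again no promoter peak after trametinib. Their levels in the libraries where they were called lay within each other's counting intervals. RPL12, which sits at the base of the stalk, had 42, 31 and 38 tags. RPL10, which is added to the subunit late and reaches towards the tRNA sites, had 15 tags in DMSO and 11 after trametinib, and these were different peaks, with summits at −253 bp and 579 bp from the start.

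Of the proteins near the peptidyl transferase centre and the tRNA sites, RPL10A, part of the mobile arm that guides tRNA out of the ribosome, had 68 tags in DMSO, 35 after AMG510 and 45 after trametinib. RPL8, which lies close to the catalytic RNA, had 55, 35 and 40. In both genes the DMSO library was the highest, and for RPL10A the DMSO interval (52.8 to 86.2) did not meet that of AMG510 (24.4 to 48.7). These intervals were not corrected for the longer extension of tags in DMSO, and how often intervals failed to meet over all genes is not given. RPL3, which also reaches towards the catalytic centre, was ordered differently, with 15, 27 and 24 tags at fold enrichments of 4.29, 7.32 and 7.85. Its DMSO summit lay 384 bp downstream of the start, and the summits after AMG510 and trametinib lay at 108 and 154 bp, so the DMSO peak was a different one with fewer tags, although the intervals overlapped. RPL4, whose long loop lines the exit tunnel, had 17 tags in DMSO and 10 after AMG510 and no promoter peak after trametinib.

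Besides RPL4, 7 genes were grouped as encoding proteins of the exit tunnel and its rim (RPL17, RPL19, RPL23A, RPL26, RPL31, RPL35 and RPL39), and these 7 had a promoter peak in each c-MYC list. RPL35, at the rim, had 73 tags in DMSO, 44 after AMG510 and 47 after trametinib, at fold enrichments of 11.0, 9.60 and 9.94. RPL23A, a docking site for factors that meet the new chain, had 60, 30 and 36 tags. RPL39, a very small protein that lines the tunnel, had 41, 19 and 26. These genes were highest in DMSO, and for RPL23A the DMSO interval (45.8 to 77.2) did not meet that of AMG510 (20.2 to 42.8). Here too, the longer extension in DMSO was not corrected for, and no count over all genes is given. RPL31, at the rim as well, had 26, 30 and 25 tags, and its fold enrichment was 6.09 in DMSO, 9.11 after AMG510 and 6.72 after trametinib.

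Several other genes stood near the top of a list. RPL13 had the most tags of all in DMSO, 88 (70.6 to 108), and had 32 (21.9 to 45.2) after AMG510 and 49 (36.3 to 64.8) after trametinib. Neither drug interval met the DMSO interval, with no correction for the longer extension in DMSO. How often intervals failed to meet over all genes is not given. RPL9, whose protein lies at the subunit surface near the stalk base, had 37, 29 and 26 tags at fold enrichments of 11.0, 9.97 and 8.27. RPL14 had 39, 15 and 26 tags at 10.7, 6.62 and 9.34. RPL14 was thus lowest after AMG510, as RPL13 was. RPL36A had 35, 28 and 32 tags at 9.85, 9.02 and 9.40, nearly level across the libraries. RPL32 had 24, 26 and 31 tags at 6.94, 8.92 and 10.2, and was highest after trametinib, with overlapping intervals. RPL38, a small protein at the surface of the subunit, had 34, 33 and 18 tags at 7.20, 9.03 and 5.39.

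Of the genes called only after AMG510, RPL41 and RPL13A stood high in that list by fold enrichment, at percentiles 95.2 and 90.4, and RPL27A stood low. RPL13A, which is also known for a role in translational silencing outside the ribosome, had 22 tags (13.8 to 33.3) at a fold enrichment of 5.64, in intron 1, at chr19:49487563-49487735. RPL41, the gene of a very short basic peptide, had 15 tags at 6.26. RPL27A had 11 tags at 4.07, at percentile 30.1 of the list. In DMSO the nearest peak summits to these genes lay 46159 bp (RPL13A), 11276 bp (RPL41) and 581010 bp (RPL27A) away. Of the 5 genes called in DMSO and after AMG510 but not after trametinib, RPL30 had 13 and 15 tags and RPL34 had 22 and 10.

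**Figure D3:**
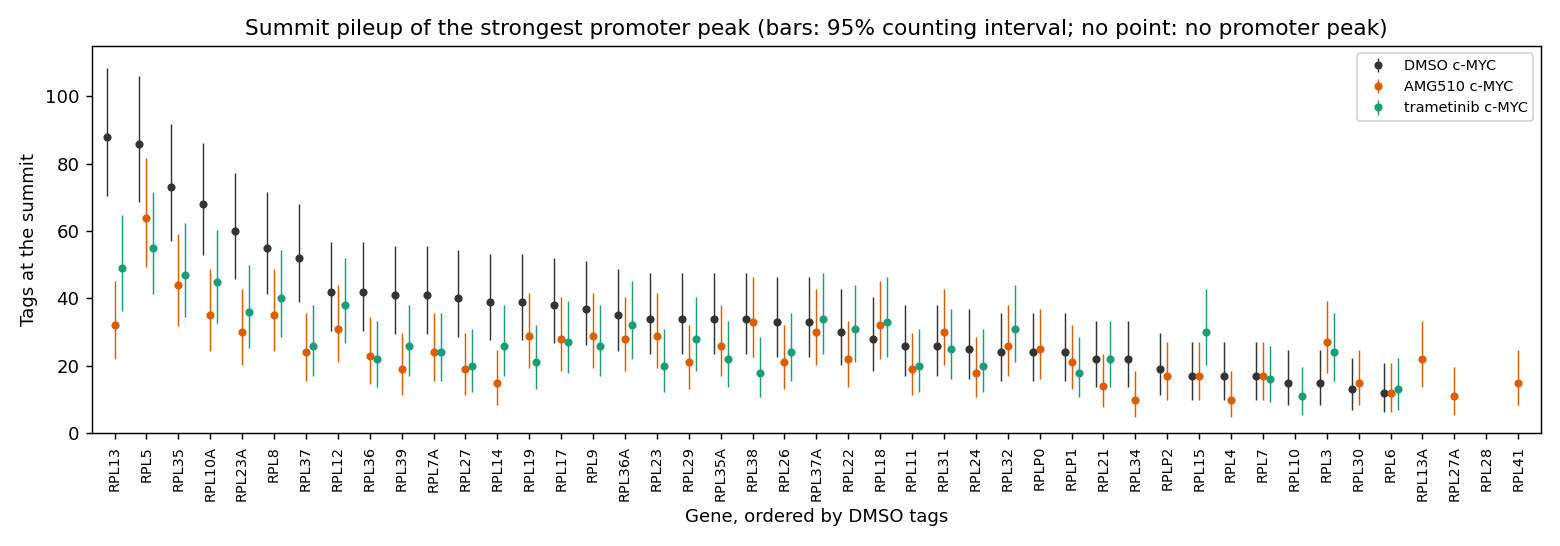
Tags at the summit of the strongest promoter peak (vertical axis) of each gene in the DMSO (black), AMG510 (orange) and trametinib (green) c-MYC libraries, ordered by DMSO tags, with 95% Poisson intervals as bars and no point where no promoter peak was called. RPL13 and RPL5 lead in DMSO with 88 and 86 tags, and the genes called only after AMG510 stand at the right with 11 to 22 tags.

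The peaks of these genes lay in nearly the same place relative to the start. The summit stood a median of 160 bp downstream of the canonical TSS in DMSO (interquartile range 114 to 185), 160 bp after AMG510 (118 to 191) and 152 bp after trametinib (121 to 195). Over all genes the medians were alike, at 139, 145 and 127 bp, but the spread was wide, with an interquartile range of −120 to 315 bp in DMSO. These medians and this range leave out summits more than 1 kb from the canonical TSS, which kept 4315 of 4761 genes in DMSO. A summit between 50 and 250 bp downstream was found for 36 of 41 large-subunit genes (87.8%) in DMSO, 34 of 43 (79.1%) after AMG510 and 31 of 36 (86.1%) after trametinib. The same shares over all genes with a promoter peak, including those left out above, were 29.6, 29.5 and 30.2%. The exceptions upstream of the start were RPL10 at −253 bp and RPLP2 at −178 bp in DMSO, and RPLP2 at −217 bp after AMG510.

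Because the first exons are short, this position falls in an intron. The canonical first exon of the 45 genes has a median of 37 bp (8 to 399) and the first intron a median of 576 bp (77 to 2205). The summit lay in intron 1 for 37 of 41 genes in DMSO, 38 of 43 after AMG510 and 33 of 36 after trametinib. RPL8 has the longest first exon and the shortest first intron, of 399 and 77 bp, and its DMSO summit fell in the untranslated part of exon 1, 104 bp from the start. Peaks were wider than elsewhere, with median widths of 502, 348 and 395 bp in the 3 libraries, against 294, 235 and 240.5 bp over all genes. Stronger peaks are called over more bases, and width and strength were not separated here.

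**Figure D4:**
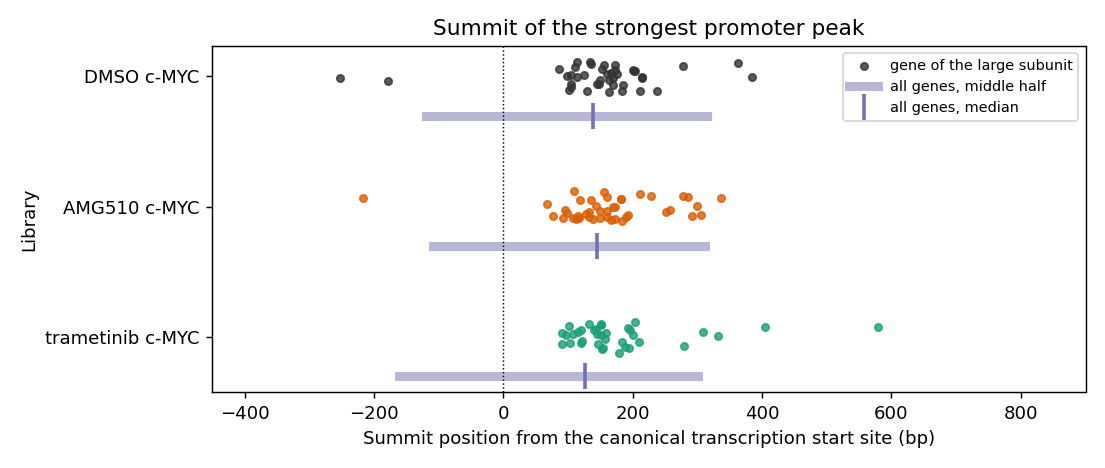
Summit position relative to the canonical transcription start site (bp, horizontal axis) for the strongest promoter peak of each large-subunit gene (points) in the 3 c-MYC libraries. The median and interquartile range over all genes with a summit within 1 kb of that site are in purple. The points gather around medians of 160, 160 and 152 bp, and the purple bars are far wider.

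The sequence under the summits was read from the GRCh38 reference on the strand of the gene. Shown first are 3 of the strongest DMSO peaks (fold enrichments of 10.7 to 11.0), with the summit base in capitals and 30 bp on each side, as examples of strong summits in intron 1 with no E-box within 100 bp. They lie at chr9:124861713-124861773 (RPL35, minus strand), chrX:119791486-119791546 (RPL39, minus) and chr6:35468505-35468565 (RPL10A, plus).
RPL35: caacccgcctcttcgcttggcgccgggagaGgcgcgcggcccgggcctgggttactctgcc
RPL39: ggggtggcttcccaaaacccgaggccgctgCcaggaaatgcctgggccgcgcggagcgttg
RPL10A: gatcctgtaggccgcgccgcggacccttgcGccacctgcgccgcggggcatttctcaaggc

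The canonical E-box CACGTG was present within 100 bp of the DMSO summit, on either strand of this palindrome, in 3 of 41 large-subunit genes (7.32%, 95% exact binomial interval 1.54 to 19.9), namely RPL22, RPL30 and RPLP1. Over all 4761 genes with a DMSO promoter peak the share was 17.3%, which lies inside that interval, so a difference was not detectable with this number of genes. After AMG510 it was 4 of 43 (9.30%) against 14.5%, with RPL13 in addition to these genes, and after trametinib 4 of 36 (11.1%) against 17.6%, with RPL8, RPL10, RPL22 and RPLP1. Both of the following sites lie in intron 1, and the capitals mark the E-box. They are at chr1:6199504-6199533 (RPL22, minus strand) and chr15:69453184-69453243 (RPLP1, plus).
RPL22: ctccaggggaggCACGTGggcctcgccgag
RPLP1: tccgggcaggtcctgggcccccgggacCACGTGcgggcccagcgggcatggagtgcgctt

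The E-box of RPL22, whose protein binds RNA also outside the ribosome, started 74 bp downstream of the TSS and its centre lay 9.5 bp from the DMSO summit, 42.5 bp from the AMG510 summit and 76.5 bp from the trametinib summit. That of RPLP1 lay 32.5, 90.5 and 63.5 bp from the summits. Peaks of all 3 libraries covered both sites. RPL30 had its E-box 20.5 bp from the DMSO summit. The 3 genes with an E-box had a median fold enrichment of 6.87 in DMSO (5.44 to 8.44), and the 38 without had 7.63 (4.29 to 16.7). The strongest peaks of the group, RPL5 and RPL13 among them, had no canonical E-box within 100 bp of the DMSO summit. The DMSO peaks of RPL13 and RPL8 did cover one farther from the summit, at 346 and 315 bp downstream of the TSS.

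The variant CACGCG, read on both strands, lay within 100 bp of the DMSO summit in 8 of 41 genes (19.5%), against 23.1% of all genes with a DMSO promoter peak. The 8 were RPL12, RPL14, RPL19, RPL21, RPL22, RPL23A, RPL38 and RPLP0. In the 2 shown here the capitals mark the variant, which reads CGCGTG on the strand of the gene. They were chosen because their windows touch no untranslated region, at chr9:127451192-127451251 (RPL12, minus strand) and chr3:40457528-40457587 (RPL14, plus).
RPL12: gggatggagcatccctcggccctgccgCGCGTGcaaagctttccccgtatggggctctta
RPL14: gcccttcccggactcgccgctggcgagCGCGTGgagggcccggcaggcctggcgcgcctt

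Further variants were looked up after the values were seen. CACGAG stood near 3 of the 41 summits (7.32%, against 10.5% over all genes). CATGTG was near 1 (2.44%, against 7.69%), and the form CATGCG was near 2 (4.88%, against 7.08%). Around the DMSO summits, the interval of the large-subunit share held the share over all genes for each of these variants and for CACGCG. Base composition differed as well. The 201 bp around the DMSO summit had a median GC content of 63.2% and 15 CpG, where all genes had 72.1% and 22 CpG. The part of base composition in the motif shares was not tested.

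Motifs of other promoter factors were counted alike on both strands. AAGATGGC, the core bound by YY1, was found within 100 bp of the DMSO summit of RPL4, RPL10, RPL21 and RPL24, which is 4 of 41 genes (9.76%, interval 2.72 to 23.1) against 1.83% of all genes. After AMG510 it was near 3 of 43 summits (6.98%, interval 1.46 to 19.1, against 1.89%), those of RPL4, RPL13A and RPL35A. After trametinib it was near 1 of 36 (2.78%, interval 0.0703 to 14.5, against 2.62%), that of RPL21. The intervals after both drugs held the share over all genes, and that in DMSO did not. CCGGAAG, a core bound by ETS factors, was also near 4 of 41 summits (9.76%), against 7.25%. In RPL10 both stand side by side under its upstream DMSO summit, and in RPL4 the first stands on the opposite strand. The windows are chrX:154398094-154398154 (RPL10, plus strand) and chr15:66504587-66504647 (RPL4, minus), with the summit base in capitals.
RPL10: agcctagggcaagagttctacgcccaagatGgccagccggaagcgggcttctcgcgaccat
RPL4: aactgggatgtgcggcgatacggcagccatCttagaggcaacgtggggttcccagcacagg

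In the RefSeq promoters of GRCh38.p14, which run from 250 bp before to 50 bp after the start and were at hand for 38 of the 45 genes (not for RPL5, RPL7, RPL8, RPL23, RPL23A, RPL30 and RPL37), CCGGAAG was found in 12 of 38 (31.6%, interval 17.5 to 48.7), against 14.4% of 15307 genes. In the 300 bp after the start it was found in 2 of the 38 (5.26%), near the 6.94% over all genes. The canonical E-box was found in 2 of 38 of these promoters, against 8.90% of all genes, and in 2 of 38 of the windows after the start, against 4.06%. The variant CACGCG was in 9 of 38 promoters (23.7%, interval 11.4 to 40.2), against 14.9%, and in 10 of 38 windows after the start (26.3%, 13.4 to 43.1), against 12.2%, which lies below that interval. AAGATGGC was in 4 of 38 promoters (10.5%), against 3.97%, and in 5 of 38 windows after the start (13.2%, 4.41 to 28.1), against 4.25%. A match of letters is a description and does not show that a factor was bound.

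**Figure D5:**
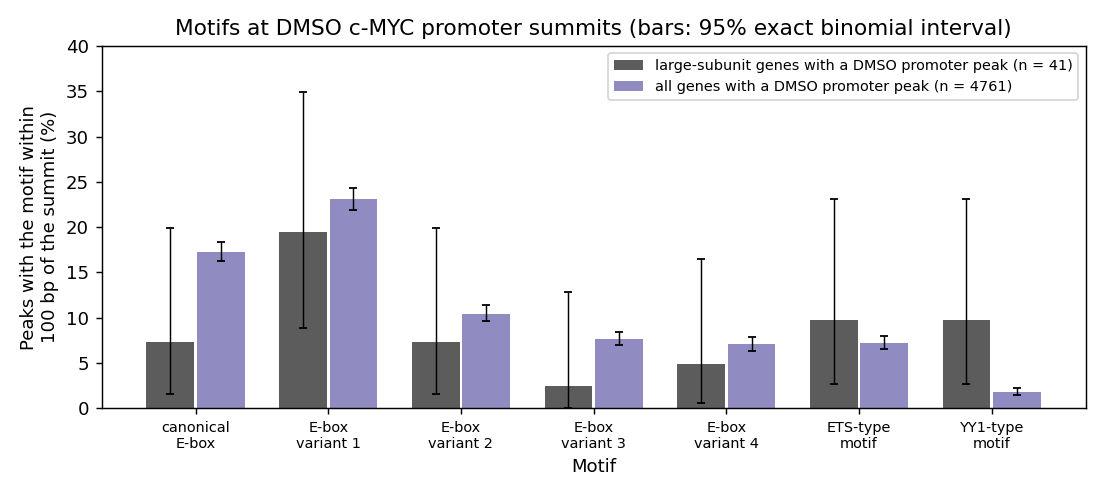
Share of DMSO promoter peaks (%, vertical axis) with a motif within 100 bp of the summit, for large-subunit genes (grey, 41 peaks) and all genes (purple, 4761 peaks), with 95% exact binomial intervals. From left to right stand the canonical E-box, its variants in the order of the text, the motif bound by ETS factors and that bound by YY1, and the grey bars of the E-box forms lie below the purple ones, with intervals that reach them.

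The next comparison was how many DMSO peaks were met again after a drug. Of the 41 strongest DMSO promoter peaks, 39 (95.1%) were overlapped by at least 1 bp by an AMG510 peak, against 34.7% of all genes with a DMSO promoter peak. For trametinib the number was 34 (82.9%), against 29.2%. Of the 26 small-subunit genes with a DMSO promoter peak, 22 (84.6%) were overlapped after AMG510 and 22 (84.6%) after trametinib. Strong peaks were met again more often over all genes too. Among genes above the 90th percentile in DMSO, an AMG510 peak overlapped 29 of 29 large-subunit peaks and 70.8% of 845 peaks over all genes, and a trametinib peak overlapped 27 of 29 and 67.0%. At or below it, the numbers were 10 of 12 and 26.9% for AMG510, and 7 of 12 and 21.1% for trametinib. The DMSO peaks not overlapped were those of RPL3 and RPL10 for AMG510, and of RPL3, RPL4, RPL10, RPL30, RPL34, RPLP0 and RPLP2 for trametinib.

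The summits also came to lie close to each other. Between DMSO and AMG510 the median distance of the strongest summits was 40.5 bp for the 40 large-subunit genes called in both, and it was at most 100 bp in 37 of them (92.5%), compared with 109 bp and 48.0% over all genes called in both. Between DMSO and trametinib it was 27 bp for 36 genes, and at most 100 bp in 30 (83.3%), compared with 90 bp and 52.7%.

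Where a gene was called in both libraries, the size of the difference was close to that over all genes. After AMG510 the median log2 ratio of fold enrichment to DMSO was −0.15 over 40 large-subunit genes, with 24 of them lower, and −0.20 over all genes, with 70.1% lower. After trametinib it was −0.19 over 36 genes, with 26 lower, and −0.23 over all genes, with 72.5% lower. The median ratio of tags was 0.737 for AMG510 and 0.727 for trametinib, against 0.722 and 0.75 over all genes, and 31 of 40 and 28 of 36 large-subunit genes had fewer tags than in DMSO, against 1681 of 2045 and 1347 of 1678 over all genes. Genes are counted here only where a peak passed calling in both libraries, and the tag ratios were not corrected for the longer extension in DMSO.

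The lowest ratios after AMG510 were those of RPL34 (log2 −0.94), RPL13 (−0.87) and RPL37 (−0.82), and the highest were those of RPL3 (0.77) and RPL31 (0.58). After trametinib the lowest was RPL37 (−0.96), the gene of a zinc-binding protein, and the highest were RPL3 (0.87) and RPL15 (0.73). The ratios of RPL3 set different peaks against each other, since its DMSO peak was overlapped by neither drug peak and the summits lay 276 bp (AMG510) and 230 bp (trametinib) apart. RPL37 had 52 tags in DMSO (38.8 to 68.2), 24 after AMG510 (15.4 to 35.7) and 26 after trametinib (17 to 38.1). Without correction for the longer extension in DMSO, neither of these drug intervals met that of DMSO. How often this was so over all genes is not given. RPL15 had 17, 17 and 30 tags, and its intervals overlapped in all pairs.

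The genes are spread over 18 chromosomes. In 11 of them the start of another protein-coding gene lies within 1 kb, among them ARPC5L beside RPL35 and LIAS beside RPL9, and a peak there cannot be assigned to only one of the genes. Small nucleolar RNAs, which guide chemical changes of rRNA, are encoded inside 18 of the 45 genes, 39 in all. Of these 18 hosts, 16 had a promoter peak in DMSO, 17 after AMG510 and 13 after trametinib, where 41, 43 and 36 of the 45 genes did.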

How the data were processed

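The authors trimmed reads (Trimmomatic 0.39), aligned them to GRCh38 (bwa 0.7.17), kept alignments with a mapping quality of at least 20 (SAMtools 1.9), removed duplicates (Picard), made intervals (bedtools 2.27.1), called peaks per library with MACS2 2.2.7.1 defaults and dropped regions on an exclusion list. No control library is named. The deposited lists give for each peak a score, a fold enrichment (a ratio), a −log10 p-value and a −log10 q-value. From these, whole tags at the summit were recovered for 100% of peaks (tolerance 0.01), a step tested on simulated data. Start sites and exons came from GENCODE version 44, and sequence from GRCh38.

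The members and lists were chosen with earlier results of these data known. Values in every library are given for the 8 genes of highest fold enrichment in DMSO, the 5 highest after each drug, genes absent from all c-MYC lists or seen only after a drug, the 5S ribonucleoprotein and the stalk. Further genes named were chosen after their values were seen. Alternatives changed the start-site set and distance, peak thresholds, overlap rule, ranking and E-box window. Python 3.11.15, pandas 2.3.3, SciPy 1.17.1 and pysam 0.24.0 were used. What AMG510 inhibits is left out here.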

Additional observations from a re-analysis of the deposited data

Results flagged for a closer look

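Of the 35 genes with a promoter peak in every c-MYC list, 21 had a lower fold enrichment than in DMSO after both drugs, and 9 a higher one. No such counts over all genes are given. In the other 5 the log2 ratio of fold enrichment to the shared DMSO library had opposite signs after the 2 drugs. It was −0.34 after AMG510 and 0.19 after trametinib for RPL21, 0.066 and −0.57 for RPL23, 0.013 and −0.062 for RPL24, 0.33 and −0.42 for RPL38, and 0.059 and −0.10 for RPLP1. None of these differences was tested, since each treatment had 1 library, and the summit of RPL21 lay 111 bp from its start in DMSO, 300 bp after AMG510 and 97 bp after trametinib.

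Peaks in the 1084 annotated pseudogenes of large-subunit genes entered none of the comparisons. Their number was 1 in DMSO, 6 after AMG510, 1 after trametinib and 2 in IgG. RPL23AP49 had one in all 4 lists, with 67 tags in IgG, and the AMG510 list had further ones in copies of RPL6, RPL7, RPL21, RPL26 and RPL34. The difference in number was not tested.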

How the results depend on the processing

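Of 55 alternative values for 12 results, 42 stayed within the set limits (for shares, the 95% interval of the reported value, which is wide here) and 13 moved, none of them in sign. The counts of genes with a promoter peak and of overlapped DMSO peaks stayed within 1.5 times the reported ones. A fold enrichment above 5 left 37, 38 and 33 of the 45 genes with a promoter peak in DMSO, AMG510 and trametinib. Over all 19663 protein-coding genes it left 2387, 1131 and 958. A score above 60 left 35, 35 and 31 of the 45, for which no count over all genes is given. The share with an E-box rested on few genes and moved most. Within 250 bp of the summit it was 22.0% in DMSO, 23.3% after AMG510 and 25% after trametinib, within 50 bp it was 2.33% after AMG510 and 5.56% after trametinib, and with CACGCG counted as well it was 24.4% in DMSO, 27.9% after AMG510 and 27.8% after trametinib. No shares over all genes are given for these settings. The alternative values therefore cannot be set against the shares over all genes for the E-box within 100 bp. The median percentile was 96.2 (DMSO) and 97.2 (AMG510) when ranked by q-value, 96.5 and 97.2 when ranked by tags, and 92.3, 92.1 and 94.0 in DMSO, AMG510 and trametinib when ranked among promoter peaks alone.

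No paired analysis was possible because there was 1 library per group, and no replicate was left out for the same reason. Most summits outside the strongest rested on few tags, so a missing peak does not show absence of binding. The lists hold no values between peaks.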
